A study of Mus musculus with 2 samples.

Results

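The Mir30 family of the mouse comprises 6 microRNA genes, Mir30a, Mir30b, Mir30c-1, Mir30c-2, Mir30d and Mir30e, arranged as 3 pairs of neighbours on chromosomes 1, 15 and 4. The members were taken by name, and all 6 were found among the 1973 genes of the deposited tables. All 6 had 10 or more counts in both libraries, as did 358 genes of the whole tables. The libraries came from whole hearts of B6NCrl mice, a C57BL/6N substrain, at postnatal day 0, and no treatment or genetic change is named in the labels. There was 1 group of 2 libraries, each from a single heart. Replicate 1 was the heart of pup 1 and replicate 2 that of pup 3, under the same donor entry, and sex was not recorded. Total RNA was used and molecules under 30 nt were sequenced.

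A microRNA gene is transcribed as a hairpin, which is cut into a 5p and a 3p strand of about the length measured here. Argonaute proteins load a strand and pair its seed, bases 2 to 8, with messenger RNAs, whose output is then lowered. The Mir30 5p strands share a seed and so can address overlapping targets. In heart the family is known for restraining connective tissue growth factor, together with the Mir133 genes, and for acting on genes of mitochondrial fission and autophagy. No messenger RNA was measured here.

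The 5p strands are shown because their seed defines the family and because the bases after it decide which reads can be told apart. RefSeq sequences were matched for 4 of the 6 members (build GRCm38.p6). Mir30b and Mir30d had no entry. Capitals mark the seed in each mature strand, 5′ to 3′.
miR-30a-5p (chr1:23272274-23272295, plus strand): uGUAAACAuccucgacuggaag
miR-30e-5p (chr4:120772660-120772681, minus strand): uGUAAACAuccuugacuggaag
miR-30c-5p (chr1:23291714-23291736, plus strand, and chr4:120769584-120769606, minus strand): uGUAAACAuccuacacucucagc
miR-384-5p (chrX:105344332-105344354, minus strand): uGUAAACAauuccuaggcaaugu

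The first 12 bases were identical in miR-30a-5p, miR-30c-5p and miR-30e-5p. With positions counted from 1 at the 5′ end, miR-30a-5p and miR-30e-5p differed by the single substitution C13U. From miR-30a-5p to miR-30c-5p there were 5 substitutions over 22 positions, C13A, G14C, G18C, G19U and A20C. The seed GUAAACA stood in 5 of the 1738 mature entries of the table, those of the 4 members and miR-384-5p of the X-linked Mir384, whose sequence departed from miR-30a-5p at position 9. The 2 genes of miR-30c, Mir30c-1 and Mir30c-2, hold the same 23 nt mature strand.

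The 3p strands fell into pairs of another kind, shown because the tables add both strands of a hairpin into 1 count per gene.
miR-30a-3p: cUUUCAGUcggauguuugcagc
miR-30e-3p: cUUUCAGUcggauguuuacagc
miR-30c-1-3p: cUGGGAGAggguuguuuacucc
miR-30c-2-3p: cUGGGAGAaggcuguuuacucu
Those of Mir30a and Mir30e share the seed UUUCAGU and differ by G18A. Those of Mir30c-1 and Mir30c-2 share the seed UGGGAGA and differ by G9A, U12C and C22U. None of these 3p strands occurred whole in another of the 1005 hairpins of the table. The tables do not say how many of a gene's counts came from each strand.

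The hairpins follow, with both mature strands in capitals, because Mir30c-1 and Mir30c-2 share sequence beyond the mature strand.
Mir30a: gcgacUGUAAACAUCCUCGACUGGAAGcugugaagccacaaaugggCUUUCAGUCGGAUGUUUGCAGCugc
Mir30e: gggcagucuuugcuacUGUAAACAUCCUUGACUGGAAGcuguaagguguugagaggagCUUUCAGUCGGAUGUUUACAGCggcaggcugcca
Mir30c-1: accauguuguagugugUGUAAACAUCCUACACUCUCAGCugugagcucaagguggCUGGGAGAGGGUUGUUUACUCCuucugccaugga
Mir30c-2: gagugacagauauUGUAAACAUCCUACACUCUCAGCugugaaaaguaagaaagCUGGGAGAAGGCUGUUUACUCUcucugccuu
Mir30c-1 and Mir30c-2 have a run of 28 nt in common, uguaaacauccuacacucucagcuguga, which holds the whole 5p strand. The other pairs of these hairpins had 12 nt in common, except Mir30a and Mir30e with 18 nt. In windows of 20 nt, 9 of the 70 windows of Mir30c-1 and 9 of the 65 of Mir30c-2 occurred in another hairpin, and 0 windows of Mir30a or Mir30e did. Predicted folding energy per nucleotide also set the members apart, at -0.56 kcal/mol for Mir30e and -0.52 for Mir30a against -0.39 for Mir30c-1 and -0.35 for Mir30c-2. The median hairpin of the table had -0.41, and 6.77% of hairpins were more stable per nucleotide than Mir30e and 71.7% more stable than Mir30c-2.

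Each pair lies on a single strand (coordinates from GENCODE M21 on mm10). Mir30e (chr4:120772606-120772697) and Mir30c-1 (chr4:120769534-120769622) lie in an intron of Nfyc, which encodes a subunit of the NF-Y transcription factor, on the minus strand with 2983 nt between them. Mir30a (chr1:23272269-23272339) and Mir30c-2 (chr1:23291701-23291784) lie on the plus strand, 19361 nt apart. Mir30a overlapped no other annotated gene and Mir30c-2 lay in the exon of the long noncoding RNA Gm27028. Mir30d (chr15:68341208-68341289) and Mir30b (chr15:68337415-68337510) lie on the minus strand, 3697 nt apart. Mir30d lay in an exon of the long noncoding RNA Gm20732 and shared its last 9 nt with Gm37296, and Mir30b shared 16 nt with an exon of Gm26621.

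The tables held 6373797 counts on the gene strand in replicate 1 and 7630427 in replicate 2. Values are given as CPM, counts per 1000000 gene-strand counts of the library, and are not scaled by length. The mature strands were 22 to 23 nt long for the 4 members with a RefSeq entry. A count of 0 was given an upper limit of 3 counts, the 1-sided 95% limit of a Poisson count, which came to 0.471 CPM in replicate 1 and 0.393 CPM in replicate 2. Heart muscle genes were present, with Mir208b at 104936 ± 4545 CPM (SD, n = 2) and the 6 such genes found at 12.4% ± 0.193 of counts. Of these 6, Mir1a-1 had only 8.89 CPM, Mir133a-1 8.24 and Mir133a-2 2.08. The hepatocyte gene Mir122 had 40.2 CPM, and the 3 neuronal Mir124a genes had 0 counts. The Mir1a, Mir133a and Mir124a genes come in copies, so their levels are those of assigned reads only. How many of the reads listed as matching several places were theirs was not tested.

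Mir30e, the more upstream gene of the Nfyc pair, was the highest member. It had 289615 counts in replicate 1 and 409123 in replicate 2, which is 45438 and 53617 CPM, or 49528 ± 5783 (SD, n = 2). It ranked 7th and 6th of all genes. Mir30a had 16615 CPM in replicate 1 and 20671 in replicate 2, a mean of 18643 ± 2868. Mir30d had 16115 and 18937 CPM, a mean of 17526 ± 1995. Mir30e was above Mir30a and Mir30d in both hearts with no overlap of values, while the values of Mir30a and Mir30d overlapped between hearts.

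Mir30b was far below the 3 leading members, with 4650 and 4512 counts, or 730 and 591 CPM, a mean of 660.4 ± 97.7. Mir30c-1 had 675 and 813 counts, which is 106 and 107 CPM. Mir30c-2 had 365 and 546 counts, which is 57.3 and 71.6 CPM. Every lower member was below the next higher one in both hearts, so the order Mir30e, Mir30a, Mir30d, Mir30b, Mir30c-1, Mir30c-2 held in each. The gap between Mir30a and Mir30d was the narrowest, a log2 difference of 0.09 ± 0.06 (SD, n = 2), within the SD of each gene's own level over hearts (0.22 and 0.16 on the log2 scale). The other gaps between neighbours in this order were 0.73 to 4.73 on the log2 scale. Each gap, that of Mir30a and Mir30d included, exceeded the SD of the gap itself.

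**Figure D1:**
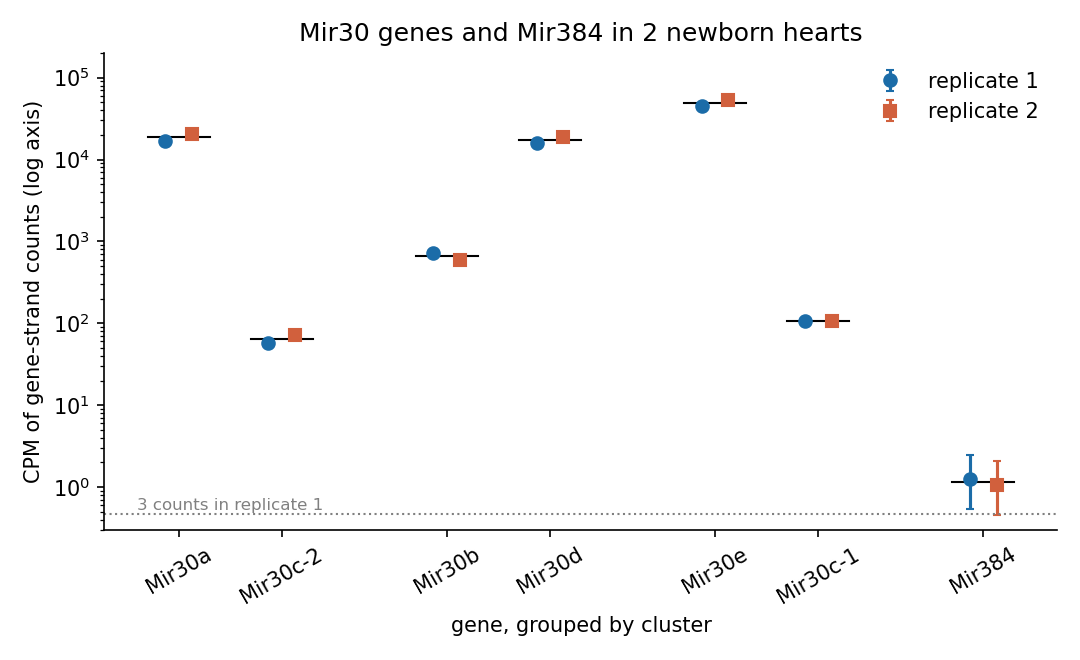
Points are CPM of gene-strand counts (log axis) in each heart with exact Clopper-Pearson 95% intervals, bars across them the mean of 2 hearts, and the dotted line the level of 3 counts in replicate 1. Mir30a, Mir30d and Mir30e lie above 10000 CPM, Mir30b at 660.4, the Mir30c genes near 100 CPM or below, and Mir384 near 1 CPM.

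The Mir30c genes are those whose mature 5p strand is repeated. Reads of the whole miR-30c-5p strand match both hairpins alike, and the deposited tables list reads that matched several places apart from the genes, at 35.9% of reads in replicate 1 and 34.6% in replicate 2. How many of those reads were miR-30c-5p was not tested, so the levels of Mir30c-1 and Mir30c-2 are those of assigned reads only. Of the hairpins, 61 of 89 nt in Mir30c-1 and 56 of 84 nt in Mir30c-2 lay outside the shared windows, their 3p strands included.

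All 6 members had 0 counts on the opposite strand. Mir30f is annotated on the plus strand across the same 92 nt as Mir30e and is not a row of the tables. Its mature strand reads as follows, with bases 2 to 8 in capitals, and carries the family seed 1 base earlier.
miR-30f: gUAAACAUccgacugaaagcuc
The tables held 0 opposite-strand counts at Mir30e in both libraries, beside 490519 and 593909 opposite-strand counts over all genes. By the limit of 3 counts that allows Mir30f up to 0.471 CPM in replicate 1 and 0.393 CPM in replicate 2 on the scale of gene-strand totals. Mir384, the other gene with the same seed, had 8 counts in each library, or 1.26 and 1.05 CPM. Its mean of 1.15 ± 0.146 CPM was below that of every Mir30 member.

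The 3 clusters made unequal parts of the family. The family held 503923 gene-strand counts in replicate 1, or 7.91% of the total (95% interval 7.89 to 7.93, exact by the Clopper-Pearson method). In replicate 2 it held 717224, or 9.40% (9.38 to 9.42). With the reads that matched several places added to the total, but none of them to the family, the mean share was 4.86% in place of 8.65%. How many of those reads were of the family was not tested, so the shares of the family and its clusters are those of assigned reads only. Of the family's counts, the Mir30e/Mir30c-1 cluster gave 57.6% in replicate 1 and 57.2% in replicate 2, a mean of 57.4% ± 0.318 (SD, n = 2). The Mir30a/Mir30c-2 cluster gave 21.1% and 22.1%, a mean of 21.6% ± 0.693. The Mir30b/Mir30d cluster gave 21.3% and 20.8%, a mean of 21.0% ± 0.375.

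The cluster in Nfyc led in both hearts. Its counts were 2.73 times those of Mir30a/Mir30c-2 in replicate 1 and 2.59 times in replicate 2. Against Mir30b/Mir30d they were 2.70 and 2.75 times as many. The Mir30a/Mir30c-2 cluster stood at 0.990 of Mir30b/Mir30d in replicate 1 (95% interval 0.981 to 0.998) and at 1.06 in replicate 2 (1.05 to 1.07). Their mean log2 ratio of 0.04 ± 0.07 was smaller than its spread over the hearts, so these clusters could not be ordered.

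**Figure D2:**
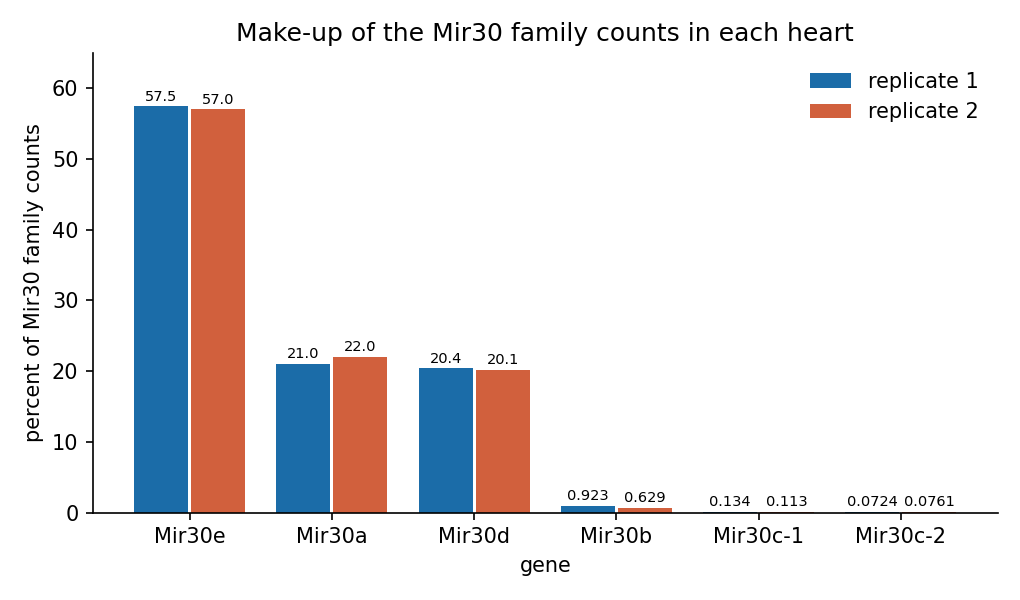
Bars give each gene's percent of all Mir30 family counts in each heart, from 0. Mir30e takes 57.5% and 57.0%, Mir30a and Mir30d about 20% to 22% each, and the remaining 3 genes under 1% each. For the Mir30c genes these are assigned reads only.

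Within every cluster a single gene gave nearly all assigned counts. Mir30e had 429 times the counts of Mir30c-1 in replicate 1 (95% interval 398 to 463) and 503 times in replicate 2 (470 to 540). Mir30a exceeded Mir30c-2 by 290-fold (262 to 322) and 289-fold (266 to 315), a mean log2 ratio of 8.18 with an SD of 0.0040. Mir30d exceeded Mir30b by 22.1-fold (21.4 to 22.8) and 32.0-fold (31.1 to 33.0), a mean log2 ratio of 4.73 ± 0.38. The Mir30a to Mir30c-2 ratio thus overlapped between hearts, while the Mir30d to Mir30b ratio did not. The lower gene was the downstream one in each cluster, Mir30c-1, Mir30c-2 and Mir30b. Of the repeated pair, Mir30c-1 exceeded Mir30c-2 by 1.85-fold (1.63 to 2.11) and 1.49-fold (1.33 to 1.66), intervals that overlapped. No correction was made for how efficiently each sequence enters a library. Ratios that involve Mir30c-1 or Mir30c-2 are those of assigned reads only, because reads of the whole miR-30c-5p strand match both hairpins. How far such reads would change these ratios, or which gene of a cluster is lower, was not tested.

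Of the 15 pairs of members, all 15 had the same order in both hearts. In 10 of them the ratio's interval in replicate 1 did not overlap that in replicate 2, and Mir30b was in 5 of these 10, which are all its pairs. Mir30e over Mir30d differed least between hearts after Mir30a over Mir30c-2, at 2.82 in replicate 1 (2.80 to 2.84) against 2.83 in replicate 2 (2.81 to 2.85). Mir30a over Mir30d went from 1.03 (1.02 to 1.04) to 1.09 (1.08 to 1.10).

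**Figure D3:**
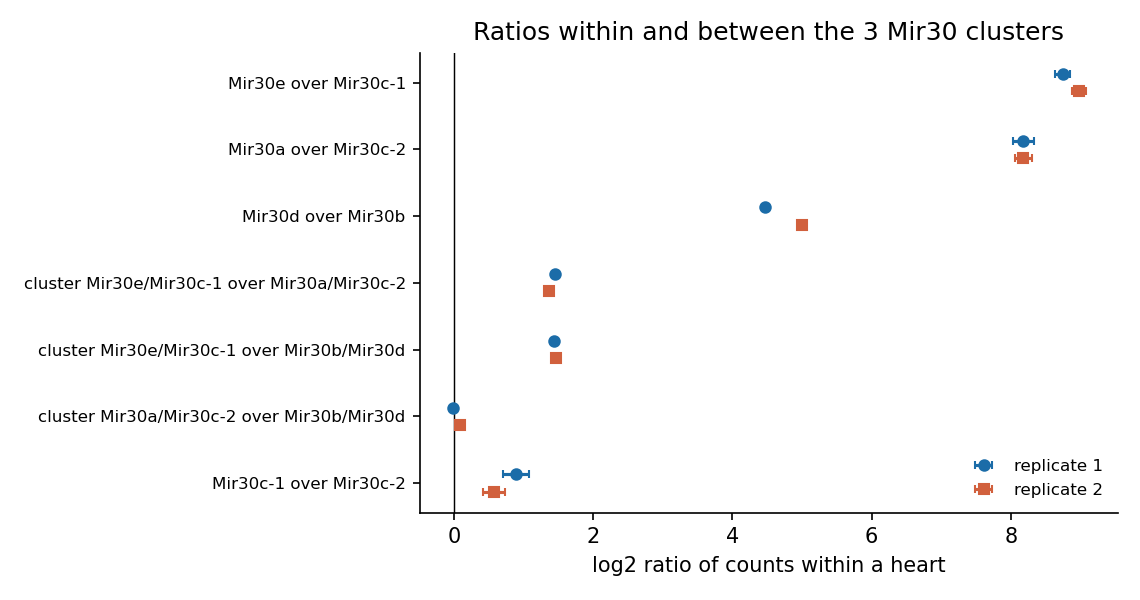
The horizontal axis is the log2 ratio of assigned counts within a heart, and each point is 1 heart with its exact 95% interval. Ratios within clusters reach 8.74 and 8.97 for Mir30e over Mir30c-1, ratios between clusters lie at 1.37 to 1.46 or near 0, and Mir30d over Mir30b differs between hearts (4.47 and 5.00).

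The 2 hearts were then compared gene by gene, with replicate 2 set against replicate 1. Mir30a, Mir30d, Mir30e and Mir30c-2 were higher in replicate 2, Mir30b was higher in replicate 1, and Mir30c-1 was not called. The test was a 2-sided exact binomial test given the library totals with Benjamini-Hochberg adjustment over the 435 genes whose counts summed over both hearts reached 10, and a threshold of 0.05. It passed 31.0% of all genes tested, 19.1% as higher in replicate 2 and 12.0% as higher in replicate 1, beside 4 and 1 of the 6 Mir30 genes. The share passed was higher among well-counted genes, at 60.2% of the 206 genes whose sum reached 500, as it did for all 6 members. Of these 206, 74 were called higher in replicate 2 and 50 higher in replicate 1. Of the 84 genes whose sum reached 10000, 78.6% passed.

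Mir30a had 1.24-fold more CPM in replicate 2, a log2 difference of 0.32 (95% interval 0.30 to 0.33). Mir30e was 1.18-fold higher in replicate 2 (log2 difference 0.24, interval 0.23 to 0.25) and Mir30d 1.18-fold (0.23, interval 0.22 to 0.24). For these 3 the adjusted p was below the smallest number the calculation could hold. Mir30c-2 was 1.25-fold higher in replicate 2 (log2 difference 0.32, interval 0.13 to 0.52, exact binomial adjusted p = 0.00374). Among the 84 genes with 10000 or more counts, Mir30a, Mir30e and Mir30d ranked 10th, 15th and 16th by ratio toward replicate 2, and 49 of the 84 had a ratio in that direction.

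Mir30b went the other way, from 730 to 591 CPM, a log2 difference of -0.30 (interval -0.36 to -0.24, exact binomial adjusted p = 1.00e-22). Its cluster partner Mir30d thus differed from it in direction. Mir30c-1 had a log2 difference of 0.01 (interval -0.14 to 0.16, adjusted p = 0.992), and its sign turned with the scaling, to -0.03 with the most abundant gene left out of the totals. Over the 6 members the median log2 difference was 0.24, beside 0.02 over all genes tested, and the median size without sign was 0.27 beside 0.21. Medians toward replicate 2 were also found in the let-7 and Mir26 lists, but their summed shares rose less. The share in replicate 2 over that in replicate 1 was 1.19-fold for the Mir30 family, 1.06-fold for let-7 and 1.04-fold for Mir26. The 10 let-7 genes tested had a median of 0.21, with 9 called higher in replicate 2 and 0 in replicate 1. That stood beside 19.1% and 12.0% of all genes, and 74 and 50 of the 206 genes whose sum reached 500, as theirs did. The 3 Mir26 genes had a median of 0.20, with 1 called higher in replicate 2.

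**Figure D4:**
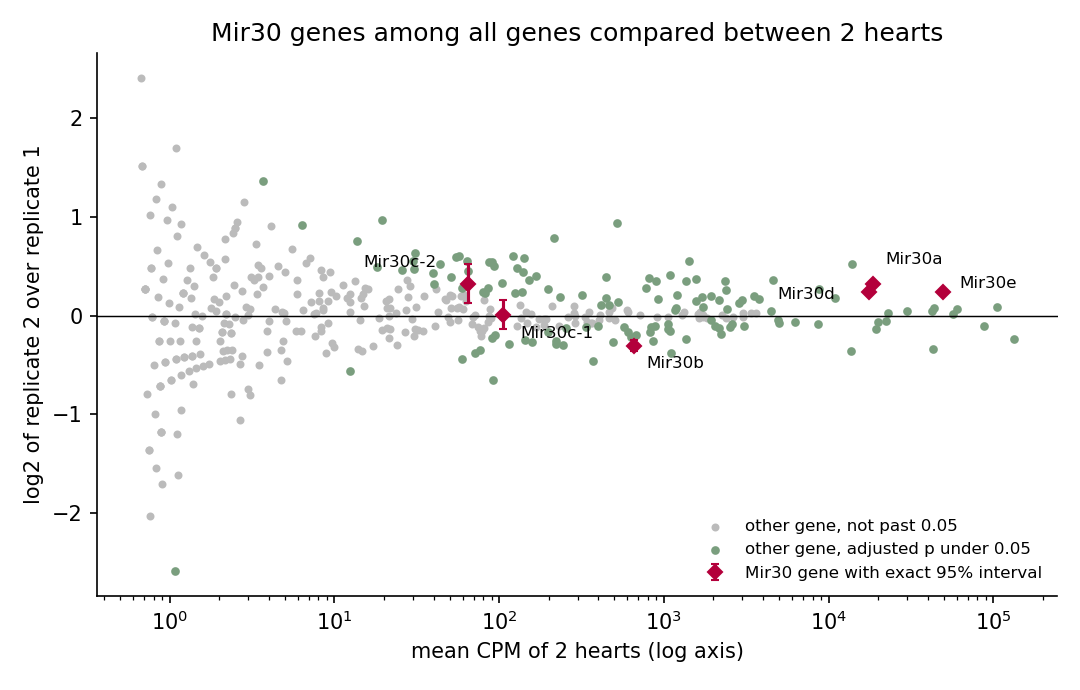
Each point is a gene with 10 or more counts in both libraries together, by mean CPM (log axis) and log2 of replicate 2 over replicate 1, and diamonds are Mir30 genes with exact 95% intervals. Mir30a, Mir30c-2, Mir30d and Mir30e lie at 0.23 to 0.32, Mir30c-1 at 0.01 and Mir30b at -0.30.

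With 1 library per heart the test compares these libraries and holds sampling noise only, so animal and library preparation cannot be told apart. In whole tissue, fewer cells of a type and less RNA per cell cannot be told apart either. The 2 endothelial genes went opposite ways, Mir126a from 144115 to 122186 CPM and Mir139 from 2741 to 2989, and their sum was 14.7% of counts in replicate 1 and 12.5% in replicate 2. Of the heart muscle genes, Mir208a went from 15419 to 11988 CPM and Mir208b from 101723 to 108150, and the 6 found in the tables summed to 12.2% and 12.5%. These values moved beside the Mir30 difference, and their part in it was not tested. With a preset biological coefficient of variation of 0.1, the edgeR exact test called 0 of the 6 members (0 at an unadjusted p under 0.05), with adjusted p from 0.866 for Mir30a, and 0.230% of all genes. Mir126a, the most abundant gene, held 14.4% of counts in replicate 1 and 12.2% in replicate 2, and Mir30a, Mir30c-2, Mir30d and Mir30e (log2 differences of 0.28, 0.28, 0.20 and 0.20) and Mir30b (-0.34) still passed in the same directions with it left out of the totals.

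The genes nearest in mean level differed for each member (difference of mean log2 CPM over 2 libraries). Mir30e lay between Mirlet7i and Mir322, Mir30a between Mir23b and Mir21a, and Mir30d next to Mir23b (17722 ± 2119 CPM) and Mir30a. Nearest to Mir30b were Mir27a (679 ± 65.5 CPM) and Mir125b-2 (634 ± 66.6 CPM). In log2 of replicate 2 over replicate 1, Mir27a had -0.20 and Mir125b-2 -0.21, both called as Mir30b was. The test called 12.0% of all genes as higher in replicate 1, and 50 of the 206 genes whose sum reached 500, as the sums of these 3 did. Neighbours did not always share a member's direction. Mir21a had -0.13 (called) and Mir23b 0.24 (called), beside 0.32 for Mir30a and 0.23 for Mir30d. Mirlet7i had 0.08 and Mir322 0.02 (both called), beside 0.24 for Mir30e. Mir30c-1, itself not called, stood next to Mir669o (-0.01, not called) and Mir194-1 (0.33, called). Mir30c-2 stood next to Mir196b (0.45, called) and Mir450-1 (0.14, not called).

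Other families that mix repeated and unrepeated genes, where repeated means that 20 nt of the hairpin occur in another hairpin, are given for comparison. Mir26a-1 and Mir26a-2, which share sequence with each other, had 9.57 ± 1.11 and 61.1 ± 6.08 CPM, while Mir26b, which shares none, had 29909 ± 735. In the let-7 list the 5 genes with a shared window ranged from 93.3 to 2381 CPM and the 5 without from 3630 to 43813 CPM. Mir30c-1, at 106 CPM, was above both repeated Mir26 genes. Mir30c-2, at 64.4 ± 10.1 CPM, was above Mir26a-1 and below every repeated let-7 gene, and its values overlapped those of Mir26a-2. Mir30a lay within the range of the unrepeated let-7 genes and Mir30e above it. These are descriptions of 2 libraries with no test, and the part of reads set aside as matching several places was not tested.

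**Figure D5:**
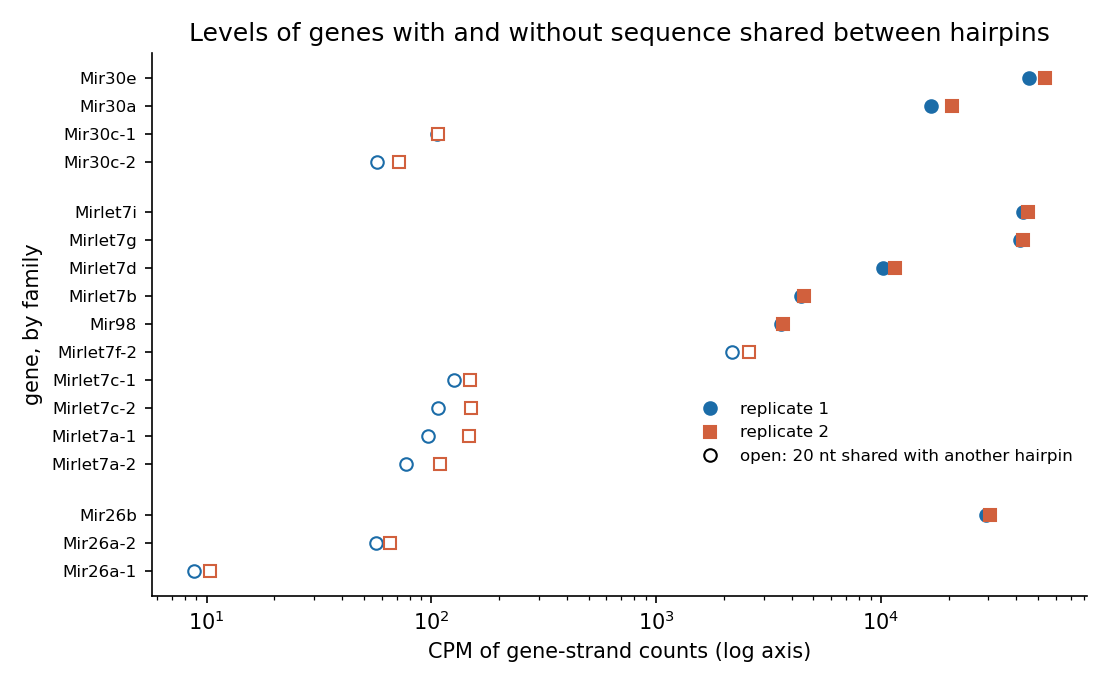
CPM of gene-strand counts (log axis) in each heart for genes of 3 families with a RefSeq hairpin, open where 20 nt of the hairpin occur in another hairpin. Mir30c-1 and Mir30c-2 are open and lie at 57.3 to 107 CPM, and Mir30a and Mir30e are filled and lie at 16615 to 53617 CPM.

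A list of other microRNA genes known for acting on matrix and fibrosis had a lower summed level than the Mir30 family in both hearts. Of the 11 genes of that list, which includes Mir21a, the Mir29 and Mir133 genes, Mir199a-1, Mir199a-2 and Mir214, 1 was higher in replicate 2, 2 were higher in replicate 1 and 8 did not pass the exact binomial test, a share of 27.3% called beside 31.0% of all genes tested. Their median log2 difference was 0.04 beside 0.02 over all genes tested, and the list took 2.12% ± 0.131 of counts (SD, n = 2) against 8.65% ± 1.06 for the Mir30 family. The 3 Mir133 genes, which are linked with Mir30 in restraining connective tissue growth factor, had 2.08 to 8.24 CPM. Like the Mir30c genes, several genes of the list come in copies (Mir29b-1 and Mir29b-2, Mir133a-1 and Mir133a-2, Mir199a-1 and Mir199a-2), so the list's level and its gap to the Mir30 family are those of assigned reads only.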

How the data were processed

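Each library has 1 deposited table of whole-number read counts by gene, not normalized. Per the text files deposited with them, the build was mm10 and the annotation GENCODE M4. For the aligner, the counter and trimming, no name or version was found in the labels or tables. From the values, the first count column is the sum of the other 2, and the second, with 92.9% and 92.8% of gene counts, was used as the gene strand. Totals cover gene rows only. In replicates 1 and 2, 12.6% and 15.5% of reads were unmapped and 1.93% and 2.28% fell in no gene.

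Identifiers were matched without version to GENCODE M21 (1894 of 1973, the rest at 0 counts). Shares and ratios carry exact Clopper-Pearson 95% intervals, and log2 ratios 0.5 added counts. Intervals and floors cover counting error only. The between-heart test was tested on simulated data with 431 genes, drawn with counting noise only and no spread between hearts. It called 76.0% of genes changed 1.2-fold and 92.0% of those changed 1.5-fold, all with 100 or more counts, and 2.16% of unchanged genes. These rates do not cover spread between animals or library preparations.

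The named genes were the members, genes with the same seed and the 2 genes nearest each member in level. The members and lists were chosen with earlier results of these data known. Alternatives were other scalings, both strands, other count minimums and added counts, thinning, single libraries and a preset spread. Python 3.11.15 was used with SciPy 1.17.1, NumPy 2.4.6, pandas 2.3.3 and matplotlib 3.10.9, RNAfold 2.7.2 gave folding energies, and R 4.3.3 ran edgeR 4.0.16 and the size factors of DESeq2 1.42.0.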

Additional observations from a re-analysis of the deposited data

How the results depend on the processing

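The 5 calls between hearts, 4 toward replicate 2 and 1 toward replicate 1, held at several settings. These were TMM factors, DESeq2 size factors, totals without the most abundant gene, count minimums of 1 and 100, both strands and thinning. Of all genes, 129 of 717 tested passed at a minimum of 1 count and 135 of 275 at 100. At the other settings 131 to 146 of 423 to 446 genes tested passed, beside 135 of 435 in the main test. With the edgeR exact test the number of Mir30 genes called was 0 at a preset coefficient of variation of 0.1 and 0 at 0.2, and of all genes 1 (29 at an unadjusted p under 0.05) and 0 (4 unadjusted). Shares follow the total chosen. Without the most abundant gene the family took 9.97%, Mir30b/Mir30d 2.10% and Mir30e/Mir30c-1 5.72%. Reads that matched several places were also added to the total, but none of them to the family. The family then took 4.86%, Mir30a/Mir30c-2 1.05%, Mir30b/Mir30d 1.02% and Mir30e/Mir30c-1 2.78%. With 5 added counts the log2 ratio of Mir30a over Mir30c-2 was 8.16. From single hearts, the log2 ratio of Mir30a/Mir30c-2 over Mir30b/Mir30d ran from -0.01 to 0.09. No paired analysis was possible because there is only 1 group. Leaving out a heart leaves no comparison between hearts.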
